A study of Homo sapiens with 3 samples.

Results

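The miR-548 family was followed in MV4-11 cells, a human acute myeloid leukemia (AML) line with the FLT3-ITD mutation, an activating duplication within the receptor kinase FLT3, and with the MLL-AF4 fusion protein. All 3 libraries of small RNA were replicates of 1 group, cells of WT genotype harvested 2 weeks after infection with EV, the empty lentiviral CRISPR-Cas9 vector, so there was no treated or control group to set against them. The labels number the replicates without saying whether they were separate cultures, so the spread between them may be technical. The study used them to decide which miRNAs of its growth screen counted as expressed. Members were taken by name alone. All rows named hsa-mir-548 in the table of hairpins gave 23 of 661 hairpins, and all rows named hsa-miR-548 in the table of mature strands gave 25 of 851 rows, which carried 20 of 783 mature names. Rows that shared a name were summed.

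miR-548 is a large primate family of miRNAs whose hairpins derive from MADE1, a short palindromic DNA transposon related to mariner elements. Because the ends of MADE1 are inverted repeats, RNA copied through an element folds back on itself into a hairpin, which Drosha and Dicer can cut into a strand from the 5p arm and a strand from the 3p arm. A mature strand pairs with its targets mainly through its seed, bases 2 to 8. Copies of the element are scattered through the genome, many of them inside introns, so family members are similar in sequence but lie in unrelated genes.

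Mature sequences were found in RefSeq (GRCh38.p14) for 17 of the 20 listed names. miR-548e-3p, miR-548a-3p and miR-548d-3p had no entry. The strands that the results below turn on are given 5′ to 3′ with the seed in capitals, those of the 5p arm first, to show how similar they are.
miR-548k: aAAAGUACuugcggauuuugcu
miR-548l: aAAAGUAUuugcggguuuuguc
miR-548j-5p: aAAAGUAAuugcggucuuuggu
miR-548ab: aAAAGUAAuuguggauuuugcu
miR-548n: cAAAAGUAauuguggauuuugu
miR-548e-5p: cAAAAGCAaucgcgguuuuugc
miR-548t-5p: cAAAAGUGaucgugguuuuug
miR-548o-3p: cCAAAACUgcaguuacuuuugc
miR-548am-3p: cAAAAACUgcaguuacuuuugu
miR-548u: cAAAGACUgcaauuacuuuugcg
miR-548ar-3p: uAAAACUGcaguuauuuuugc
miR-548f-3p: aAAAACUGuaauuacuuuu
miR-548j-3p: cAAAAACUgcauuacuuuugc

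The 17 sequences fell into 14 seeds. The seed AAAGUAA was shared by miR-548j-5p and miR-548ab, AAAACUG by miR-548ar-3p and miR-548f-3p, and AAAAACU by miR-548j-3p and miR-548am-3p. Every other matched member had a seed of its own among the 17. RefSeq gave 6 mature names outside the family with one of these seeds, such as miR-559 with AAAGUAA and miR-570-5p with AAGGUAA, the seed of miR-548ag. None of the 6 had a row in the mature table. Of the 14 seeds AAAGUAA was carried by the most family names in the reference, 11.

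The strands of the opposite arms mirrored each other, as those of an inverted repeat do. The letters AAAAGUAA were in 3 of the 17 sequences, miR-548j-5p, miR-548n and miR-548ab, and in none of 2315 mature names outside the family. Of the 55 family names in the reference 16 carried them, which was 0.675% of all its human mature names. The reverse complement UUACUUUU was in 5 of the 17, all of the 3p arm. It was in 15 of the 55 and in 2 of the 2315 others, miR-126-5p and miR-603, which together made 0.717% of all names. The mature strands themselves were searched, and both motifs were chosen after the sequences were seen. The members were rich in A and U, with a median of 63.6% and a range of 54.5% to 84.2%, against a median of 50.0% over the 679 listed mature miRNAs with a RefSeq sequence.

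The hairpin of hsa-mir-548ar shows the fold. It is annotated at chr13:114244505-114244561 (GRCh38, plus strand), within an intron of CDC16, a subunit of the anaphase-promoting complex. It is 57 bases long, and its 3p strand is in capitals.
hsa-mir-548ar: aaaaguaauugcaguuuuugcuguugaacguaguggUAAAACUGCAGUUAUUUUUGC
When the 5p strand was laid against the 3p strand without gaps, 16 of 19 facing positions were Watson-Crick pairs, 2 were G-U pairs and 1 was unpaired. For the arms of miR-548j the same comparison gave 13 Watson-Crick pairs, 2 G-U pairs and 5 unpaired positions of 20, a count that allows no bulge.

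The family as a whole was a small part of the miRNA in these cells. It took 3976, 4055 and 4231 of the 12694823, 10991953 and 11682129 counts listed for mature miRNAs in replicates 1, 2 and 3. Replicate 1 gave a share of 0.0313% with a Wilson 95% interval of 0.0304 to 0.0323. Replicate 2 gave 0.0369% (0.0358 to 0.0380), and replicate 3 was near it with 0.0362% (0.0351 to 0.0373). The mean share was 0.0348% ± 0.00304 (SD, n = 3), although the family held 2.55% of the mature names. The interval of replicate 1 lay below the others, and these intervals cover only the sampling of reads within a library. The shares divide by the library total. Size factors from the median of ratios between libraries were 0.860, 1.03 and 1.17 in replicates 1, 2 and 3. Divided by them, the family's counts were highest in replicate 1 and lowest in replicate 3, so the order depended on the scaling. No molecular identifiers were described for these libraries, so reads copied from the same molecule would count separately. Markers of white blood cells had mean levels from 27965 FPKM for miR-146a-5p to 1100890 FPKM for miR-155-5p in the same libraries. Markers of liver, muscle, epithelium and neurons ranged from 231 FPKM for miR-122-5p to 55618 FPKM for miR-124-3p. The lists overlapped, since miR-124-3p was above miR-146a-5p.

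All 20 mature members were above 0 in all 3 libraries, but few were well covered. Each listed row had at least 10 counts in some library, so a count above 0 in all of them says little. A minimum of 10 counts in every library was met by 13 members (65.0%), one of 100 counts by 5 (25.0%) and one of 1000 counts by 1 (5%). Over all 783 mature miRNAs these shares were 78.5%, 42.1% and 20.8%. FPKM, which divides counts by the length of the strand and the library total, ranged from a mean of 23.7 for miR-548am-3p to 5919 for miR-548e-3p, a span of 250-fold. The median member had a mean of 135 FPKM and the median of all mature miRNAs was 270 FPKM. On the log2(FPKM + 1) scale, which understates ratios of low strands, the medians were 6.74 and 8.05, a difference of -1.31 ± 0.36 (SD over the 3 libraries). It was -0.81 without replicate 1, -0.72 over miRNAs with at least 10 counts in every library and -2.50 with rows of a name kept separate. Only 7 of the 20 members were above the median of all, and the other 13 were below it.

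**Figure D1:**
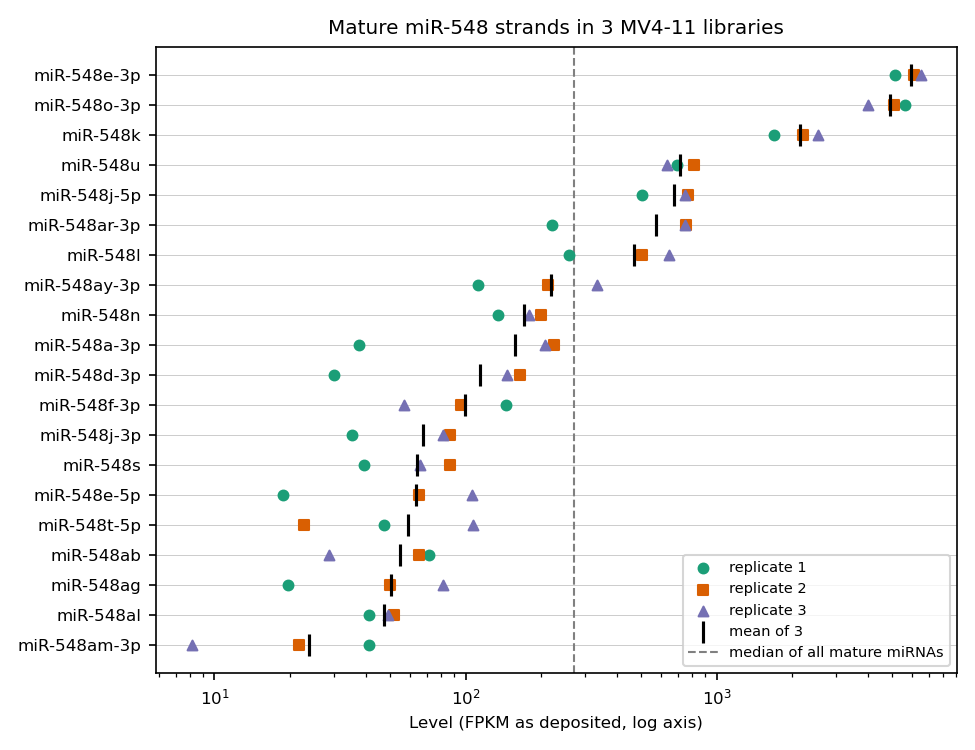
Level of each of the 20 mature miR-548 strands (rows) in FPKM on a log axis, with a point for each of the 3 libraries, a bar for their mean, and a dashed line at the median of all mature miRNAs, 270 FPKM. 7 members have means right of the line, and the 3 libraries lie close together for the 5 members at the top and for miR-548n and miR-548al but apart for most others.

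A pair of strands made up most of the family. miR-548e-3p had 1374, 1411 and 1593 counts in replicates 1, 2 and 3 and a level of 5919 ± 690.0 FPKM (SD, n = 3), which ranked 161 of 783. miR-548o-3p had 1497, 1171 and 986 counts and 4901 ± 812 FPKM, rank 175. Replicate 1 had the lowest FPKM of the first and the highest of the second. Together they took 65.6% ± 5.87 (SD, n = 3) of the family's counts, with 72.2%, 63.7% and 61.0% in replicates 1, 2 and 3. miR-548e-3p was the higher of the pair on average, by more than the larger SD, but in replicate 1 it was the lower, so their order was not the same in each library.

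miR-548k was next with 451, 509 and 621 counts and 2142 ± 423 FPKM (SD, n = 3), below miR-548o-3p and above the next member by more than the larger SD of each pair. Adding it brought the share of the family's counts to 78.5% ± 4.41. The other 17 members were all under 1000 FPKM. miR-548u followed with 194, 197 and 163 counts and 714 ± 91.8 FPKM, and then miR-548j-5p with 135, 178 and 183 counts and 674 ± 146 FPKM. These 2 levels overlapped, and the same held for the next steps down to miR-548l. miR-548ar-3p had 56, 166 and 175 counts and 575 ± 307 FPKM, so replicate 1 was far below the other libraries. miR-548l had 69, 116 and 158 counts and 468 ± 195 FPKM, and no library was close to another.

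Below these lay a tail of thinly read strands. miR-548ay-3p had 220 ± 111 FPKM from 30, 49 and 82 counts, and miR-548n had 171 ± 32.9 FPKM from 36, 46 and 44 counts (SD, n = 3). Of the 19 steps between neighbours in the order of mean level, 5 were larger than the larger SD of the pair, 3 of them at the top, 1 between miR-548l and miR-548ay-3p and 1 above the last member. From miR-548ay-3p down to miR-548al no member differed from its neighbour by more than this, although members further apart in the order did, such as miR-548n and miR-548al, which did not overlap in any library. Among these thinly read members miR-548t-5p had the largest relative spread, with 12, 5 and 25 counts and a coefficient of variation (SD over mean) of 73.4%. The 3 lowest were miR-548ag with 5, 11 and 19 counts and 50.3 ± 30.8 FPKM, miR-548al with 11, 12 and 12 counts and 47.4 ± 5.52 FPKM, and miR-548am-3p with 11, 5 and 2 counts and 23.7 ± 16.6 FPKM (SD, n = 3).

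The hairpins gave a similar picture on a lower scale, because their length enters FPKM. The highest of the 23 was hsa-mir-548e with 1380, 1428 and 1620 counts and 1441 ± 176 FPKM (SD, n = 3), rank 154 of 661. hsa-mir-548o-2 followed with 735 ± 120 FPKM, hsa-mir-548o with 460 ± 79.4, hsa-mir-548k with 391 ± 75.9 and hsa-mir-548ar with 205 ± 109 (SD, n = 3). The lowest were hsa-mir-548f-2 with 9.76 ± 3.82, hsa-mir-548f-3 with 9.69 ± 4.83 and hsa-mir-548am with 6.80 ± 4.78 FPKM (SD, n = 3). The median on the log2(FPKM + 1) scale was 4.13 for family hairpins and 6.08 for all hairpins, a difference of -1.95 ± 0.30 (SD over libraries). That difference shrank to -0.23 when hairpins with under 10 counts in any library were left out, which kept 13 of the 23. RefSeq named 75 MIR548 genes, so the 23 listed were a minority of the family.

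The listed hairpins lay in many different genes. Of the 18 that could be placed through a RefSeq sequence, on 12 chromosomes, 14 lay within another gene on the same strand in GENCODE 29 (GRCh38), and 13 of these genes were protein-coding. All 14 were intronic and none overlapped an exon. hsa-mir-548e lies at chr10:110988926-110989013 on the plus strand, in an intron of SHOC2, a scaffold of RAS signaling. hsa-mir-548k lies at chr11:70283955-70284070 on the plus strand in PPFIA1, and hsa-mir-548u at chr6:57390132-57390212 on the plus strand in PRIM2, a subunit of DNA primase. The hairpin hsa-mir-548l lies at chr11:94466495-94466580 on the minus strand in MRE11, a nuclease of DNA break repair, and hsa-mir-548j at chr22:26555212-26555323 on the minus strand in TPST2. Host genes were not measured in these libraries.

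The 2 hairpins annotated with miR-548o-3p differed in setting. hsa-mir-548o-2 lies at chr20:38516563-38516632 on the plus strand, in an intron of RALGAPB, while hsa-mir-548o lies at chr7:102405742-102405855 on the minus strand with no gene on its own strand and with PRKRIP1 on the other. The 4 placed hairpins with no gene on their strand were this one, hsa-mir-548ay, hsa-mir-548ag-2 and hsa-mir-548ab.

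Which strands belong to more than 1 hairpin was asked next, since a read of a shared strand cannot be traced to its locus. Of the 20 names, 4 had several rows in the table, 9 rows in all. These were miR-548a-3p with 3 rows and miR-548d-3p, miR-548f-3p and miR-548o-3p with 2 rows each. The other 16 had 1 row. The rows of miR-548o-3p held 751, 560 and 497 counts and 746, 611 and 489 counts in replicates 1, 2 and 3, and the first took 50.2% of the name's counts in replicate 1 (exact 95% interval 47.6 to 52.7). Its share was 47.8% (44.9 to 50.7) in replicate 2 and 50.4% (47.2 to 53.6) in the last library. Both rows were thus alike in size in each library, and neither was identical to the other. Over the 4 names, all 27 intervals of a row's share held the share that an equal division would give, although for the other 3 names, with 8 to 52 counts in a library, the intervals were wide.

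**Figure D2:**
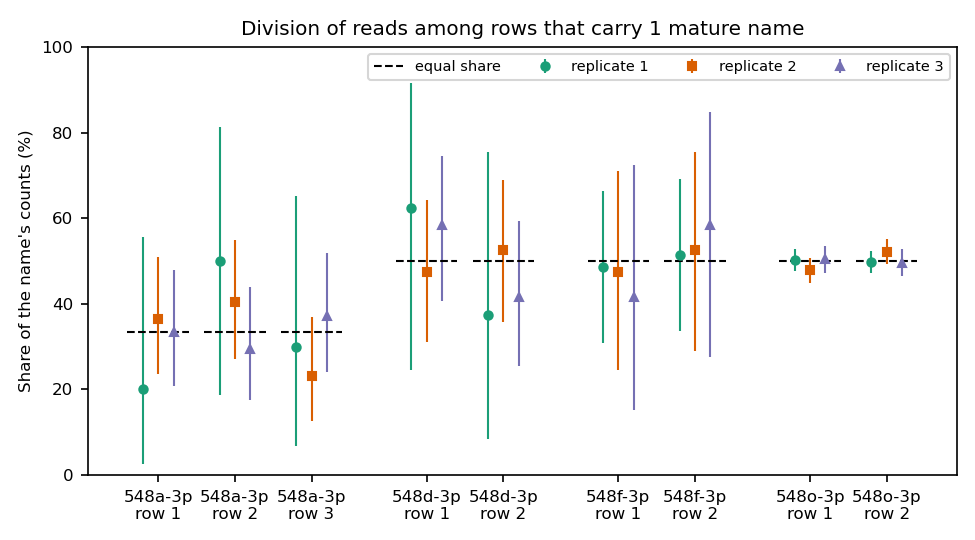
Share (%) of a mature name's counts found in each of its rows, for the 4 names with 2 or 3 rows, with a point and an exact 95% interval for each of the 3 libraries and a dashed line at the equal share. All 27 intervals cross the line, and those of miR-548o-3p are the narrowest. Where a name has 2 rows, their intervals mirror each other.

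The near-equal rows set the hairpin values as well. The counts of hsa-mir-548o-2 and hsa-mir-548o were those of the 2 rows of miR-548o-3p in all 3 libraries, so the higher FPKM of hsa-mir-548o-2 came with fewer bases of hairpin and not with more reads. In the same way the counts of hsa-mir-548f-2 and hsa-mir-548f-3 equalled those of the 2 rows of miR-548f-3p. RefSeq gave 5 loci for miR-548f-3p and 2 for miR-548ag, of which 2 and 1 were listed here. Reads placed at an unlisted locus, if there were any, are missing from the levels of miR-548f-3p and miR-548ag. The same holds for sums that include these strands. For these strands the reads of a single hairpin are not known, so the levels given above for hsa-mir-548o, hsa-mir-548o-2, hsa-mir-548f-2 and hsa-mir-548f-3 are those of the rows as deposited.

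Some members with different names were nearly the same molecule. miR-548n and miR-548ab shared a run of 20 bases, offset by 1 base, and had 36, 46 and 44 counts and 19, 15 and 7 counts in replicates 1, 2 and 3. miR-548o-3p and miR-548am-3p shared a run of 19 bases and matched at 20 of 22 positions, with levels of 4901 ± 812 and 23.7 ± 16.6 FPKM (SD, n = 3). Both of the latter were highest in replicate 1 and lowest in replicate 3, and how mismatched reads were assigned between them was not tested. miR-548ar-3p and miR-548s shared a run of 17 bases, and miR-548k matched miR-548ab at 20 of 22 positions.

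Strands with the same seed can be summed, since the seed is what they present to targets. The matched AAAGUAA strands came to 729 ± 135 FPKM, nearly all of it miR-548j-5p. The matched AAAACUG strands came to 674 ± 269 FPKM (SD, n = 3), most of it miR-548ar-3p. From replicate 1 to the other libraries the AAAAACU strands moved in opposite directions. miR-548j-3p had 9, 19 and 19 counts where miR-548am-3p had 11, 5 and 2. Their sum was 20, 24 and 21 counts and 91.4 ± 15.8 FPKM, so it varied less than either strand. Few reads lie behind this, since counting alone would give the 2 strands coefficients of variation of 25.3% and 40.8%. Among the 17 matched strands these sums were below the levels of CAAAACU (miR-548o-3p) and AAAGUAC (miR-548k), each carried by 1 strand. miR-548e-3p, the most abundant member, miR-548a-3p and miR-548d-3p are not in these sums, because their seeds were not read. The sum of any seed that they carry would be higher, by 5919 FPKM for that of miR-548e-3p, so the order of the seeds over the whole family is not known here.

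The 2 arms were then compared. Where the name gives no arm, it was read from the place of the strand in its hairpin, which matched the name in 11 of 11 placements where both were known. This put 12 of the 20 members on the 3p arm and 8 on the 5p arm. The 3p strands took 81.6%, 77.9% and 74.4% of the family's counts in replicates 1, 2 and 3, a mean of 78.0% ± 3.59 (SD, n = 3). Without miR-548e-3p and miR-548o-3p it was 35.8% ± 2.99, so these 2 strands set the direction of the sum. The median mean levels of the 3p and 5p members were 135 and 117 FPKM.

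Both arms were listed for only 2 of the 18 hairpin names, and they leaned opposite ways. The 5p strand of miR-548e had 5, 15 and 26 counts, where the 3p strand had 1374, 1411 and 1593. The 3p strand exceeded it by 275-fold, 94.1-fold and 61.3-fold in replicates 1, 2 and 3. For miR-548j the 5p strand had 135, 178 and 183 counts and the 3p strand 9, 19 and 19, so that the 5p strand exceeded it by 15-fold, 9.37-fold and 9.63-fold. The arms did not overlap in either hairpin, and the less abundant strand was thinly read in both.

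In edgeR's quasi-likelihood test on counts with the library as a block, the log2 ratio of 5p to 3p was -6.71 ± 0.53 (SE, Benjamini-Hochberg adjusted p = 9.23e-05) for miR-548e, lower in 3 of 3 libraries. It was 3.43 ± 0.34 (SE, edgeR adjusted p = 0.000218) for miR-548j, higher in 3 of 3 libraries. The test was fitted to all 195 pairs with both arms above 0 in every library, and a pair was called at an adjusted p under 0.05 and an absolute log2 ratio of at least 1. Both family pairs were called, but so were 160 pairs or 82.1% of all, with 40.5% toward 5p and 41.5% toward 3p, so the family's count is read against a background in which most pairs were called. The absolute log2 ratio of miR-548e was above the median of 3.17 over all pairs and that of miR-548j was near it.

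**Figure D3:**
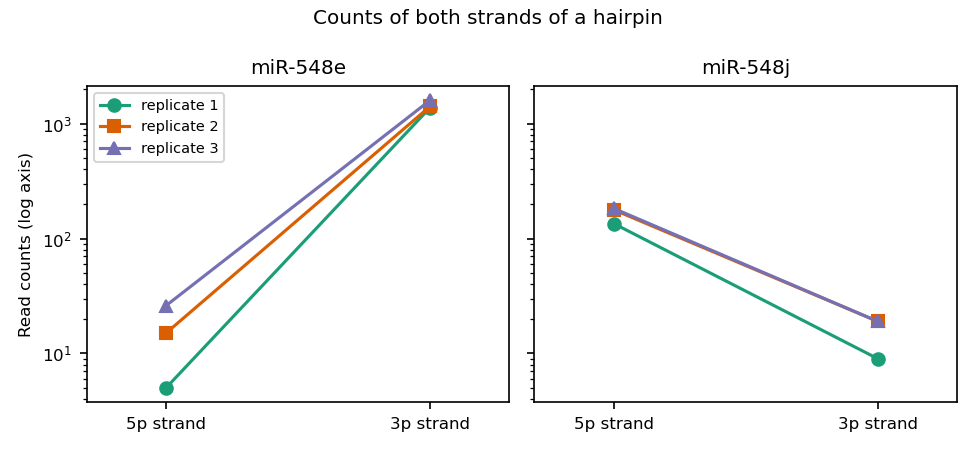
Read counts on a log axis of the 5p and 3p strands of miR-548e (left) and miR-548j (right), with a line for each of the 3 libraries. The lines of miR-548e climb from 5 to 26 counts to 1374 to 1593, and those of miR-548j drop from 135 to 183 counts to 9 to 19.

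For the other 16 hairpin names a single arm was listed, and the reads of the hairpin show how much could have come from elsewhere in it. The listed strands held 100% of the hairpin's reads in all 3 libraries for 7 of the 18 names, 6 of them with 1 listed arm. hsa-mir-548ar is an example. Its 56, 166 and 175 reads were all in miR-548ar-3p, although RefSeq also annotates a 5p strand. With 3 reads taken as the upper limit of a count of 0, the rest of the hairpin could hold up to 5.36%, 1.81% and 1.71% in replicates 1, 2 and 3. This limit covers only reads placed on this hairpin. Reads of its 5p strand that were dropped or placed elsewhere would also leave a count of 0. The median over the 18 names was 99.7%, and 99.2% over 539 other hairpin names. The 539 leave out any other name whose listed strands held more than 100% of its hairpin's reads. At least 99% of reads were in listed strands for 12 of the 18, and for 51.8% of the others.

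The listed strands held under 90% of the reads of 3 names. hsa-mir-548l had 124, 144 and 188 reads, of which 55, 28 and 30 lay outside miR-548l. The strand held 55.6%, 80.6% and 84.0% of the reads in replicates 1, 2 and 3, so replicate 1 had the most reads outside although its hairpin count was the lowest. Of the 9, 26 and 29 reads of hsa-mir-548ag-2, 4, 15 and 10 lay outside miR-548ag, which left 55.6%, 42.3% and 65.5% inside. The 3 hairpins of miR-548a together had 7, 7 and 13 reads outside. The counts of hsa-mir-548a-1 and hsa-mir-548a-2 equalled rows of the mature table, which left these reads to hsa-mir-548a-3, with 10, 19 and 32 reads. Among the 539 other names 19.3% were under 90%. The reads outside the listed strands were not resolved to an arm or a loop here.

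**Figure D4:**
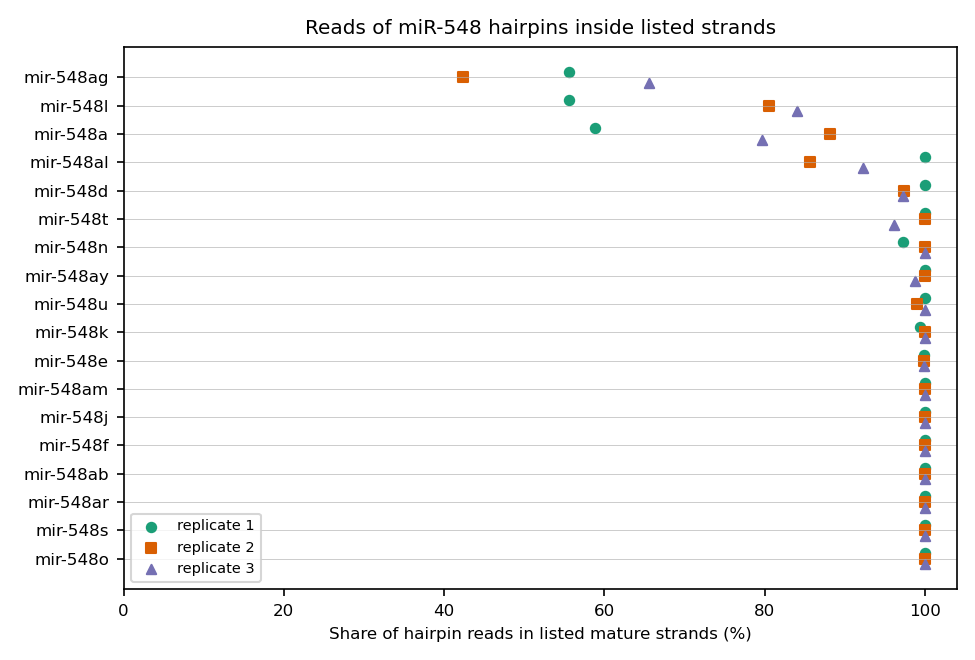
Share (%) of the reads of each of the 18 hairpin names that lay in its listed mature strands, with a point for each of the 3 libraries. 12 names sit at 99% or more over the 3 libraries together, while mir-548ag, mir-548l and mir-548a spread from 42.3% to 88.1%.

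Replicates differed more for these members than for most miRNAs. The median coefficient of variation over the 3 libraries was 41.8% for the 20 members and 32.5% for all 783 mature miRNAs. Counting alone would give a median of 17.7% for the members and 12.1% for all, so the members, with their lower counts, also had the larger counting error. Among the 5 members with at least 100 counts in every library the median was 16.6%, with a range of 11.7% to 21.7%, against 25.2% over the 330 miRNAs that met this minimum. Replicate 1 carried much of the spread, since without it the medians fell to 16.9% for the members and 13.7% for all. In FPKM the 3 largest coefficients among the well covered members were those of miR-548j-5p at 21.7%, miR-548k at 19.8% and miR-548o-3p at 16.6%. After scaling by the median of ratios these became 5.51%, 4.01% and 37.0%, with 23.4% for miR-548u and 9.36% for miR-548e-3p. The order of these members therefore depended on the scaling.

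The members did not move together between libraries. Replicate 1 had the lowest FPKM for 14 of 20 members, which is 70.0% and close to the 65.0% of all mature miRNAs. After scaling by the median of ratios it was the lowest for 9 of 20, or 45.0%, against 43.0% of all. miR-548a-3p had 10, 52 and 51 counts and miR-548d-3p 8, 38 and 36, and both were far lower in replicate 1. Along with miR-548ar-3p they separated replicate 1 from the other 2 libraries, which were alike. Some members were ordered the other way. miR-548o-3p, miR-548f-3p, miR-548ab and miR-548am-3p had their highest level in replicate 1 and their lowest in replicate 3, which was 20% of the members where 12.4% of all mature miRNAs did so. The reverse order, highest in replicate 3 and lowest in replicate 1, was seen for 6 members (30%, all 44.2%). Scaling turned these counts round, to 7 members (35.0%, all 26.3%) highest in replicate 1 and lowest in replicate 3 and 4 members (20%, all 27.3%) in the reverse order. The counts of miR-548f-3p were 33, 19 and 12. Across the 20 members the rank correlation (Spearman's rho) of FPKM was 0.780 between replicates 1 and 2, 0.694 between 1 and 3 and 0.901 between 2 and 3, a description over members that share libraries. Over all 783 mature miRNAs, whose levels span a far wider range, it was 0.952, 0.940 and 0.974.

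The family was also set beside 12 other miRNAs known from or related to repeats, a list written by name. Rows were found for 10 of them, with 16 mature names. Their median on the log2(FPKM + 1) scale was 13.57, where that of miR-548 was 6.74, and 11 of the 16 were above miR-548e-3p. miR-340-5p was the highest with 132271 ± 7208 FPKM (SD, n = 3), followed by miR-151a-3p with 103204 ± 19528. The other 5 were within the family's range of mean levels, namely miR-151a-5p, miR-345-3p, miR-95-3p, miR-545-3p and miR-570-3p, the last on the list as close in sequence to miR-548. miR-570-3p had 8, 35 and 57 counts and 138 ± 102 FPKM (SD, n = 3), close to the median member, and replicate 1 was again the lowest. miR-603 had no row in the table.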

How the data were processed

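Small RNA was sequenced from 3 replicates of 1 group. Per the labels, RNA was isolated on miRNeasy columns and libraries followed the NEB protocol. The authors counted aligned reads (Novoalign 2.08.03 in the submitters' processing notes, which list hg19 and mm10 without roles) over miRBase release 21. The deposited counts are raw reads per mature strand or hairpin, and the deposited FPKM divides them by length (1 base under that of the 17 RefSeq strands) and library total. How reads with several matches were placed is not given in the sources used here. Each row had at least 10 counts in some library, so unlisted strands were given no level.

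Levels are FPKM as deposited, with a pseudocount of 1 on the log2 scale. Arms were tested on counts with edgeR 4.0.16 in R 4.3.3 (alternatives limma 3.58.1 and DESeq2 1.42.0). The fit was also run on simulated pairs, with log2 ratios smaller in size than those of the family pairs, so that run does not bear on them. The p-values of the edgeR fit measure only the spread between these libraries. Sequences and places come from RefSeq GRCh38.p14 and GENCODE 29, matched by miRNA name, since the files give no coordinates. Members named were the 10 highest and 3 lowest strands, both-arm pairs and repeated names. The 3 most variable in FPKM with at least 100 counts, and the 5 highest and 3 lowest hairpins, were named too. Others named were chosen after their values were seen. The members and lists were chosen with earlier results of these data known.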

Additional observations from a re-analysis of the deposited data

How the results depend on the processing

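Of 86 values recomputed for 10 results under another setting, 69 stayed within their limits, 17 moved and none reversed. The limit was a fixed ratio for counts, a kept call for arm ratios, and an SD over libraries for most other results. For the share of hairpin reads that SD was 0, so any change was a move. For the coefficient of variation it was the SD of the leave-out values themselves, 20.8, so 57.9% against 41.8% was not a move. The tally therefore depends on these limits. A reversal was possible only for the differences of medians and the arm ratios, since the other results have no sign. Detection fell from 20 members to 13 with at least 10 counts in every library, to 5 with at least 100, and to 11 with a mean of at least 100 FPKM. The family's share of counts was 0.0238% without the 4 names with several rows. The difference of medians between mature members and all was -0.94 in CPM (counts scaled to the library total only), -0.72 with at least 10 counts in every library and -2.50 with each row kept separate. It ranged from -1.50 to -0.81 with 1 replicate left out. For hairpins it was -1.51 with a pseudocount of 10, -1.29 in CPM and -0.23 with at least 10 counts in every library, and it ranged from -1.82 to -1.68 with 1 replicate left out. The median coefficient of variation was 16.6% with at least 100 counts, by construction over the 5 well covered members, and ranged from 16.9% to 57.9% with 1 replicate left out, the lowest without replicate 1. The median share of hairpin reads in listed strands was 99.86% for hairpins with at least 100 counts and 99.83% to 99.95% with 1 replicate left out. The cause of these moves was not tested, except that a filter on counts removes low members by construction.

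Both family pairs were called in each fit that held them. A minimum of 10 counts in every library for both arms left neither pair to test, and this loss is not among the moves counted above. The log2 ratio ranged from -7.20 to -6.20 for miR-548e and from 3.24 to 3.55 for miR-548j with 1 replicate left out. Without the replicate block it was -6.55 and 3.38, and 162 pairs were called in place of 160. Depth limits the ratios, since the lower arm of miR-548e had 5 counts in replicate 1.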
